A study of Mus musculus with 2 samples.

Results

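Hepatocyte growth factor (HGF), fibroblast growth factors (FGFs), their receptors and the syndecans were followed as 10 genes among the 32285 features of each count matrix. They were the ligands Hgf, Fgf2 and Fgf7, the receptors Met, Fgfr1, Fgfr4 and Fgfrl1, and the syndecans Sdc1, Sdc2 and Sdc3. The genes were listed by name as a signalling family, and all 10 had a row in both matrices. The cells came from the plantaris muscle of 26-week-old Pax7rtTA; TRE-H2B-GFP mice, a strain in which Pax7 drives a doxycycline-dependent activator of a nuclear GFP reporter. All mice had received doxycycline at 2.0 mg/mL for 2 weeks in water with sucrose, at 2% by the labels and at another concentration by the study's methods, before a washout. The Sham group had sham surgery, and the Overload group had mechanical overload (MOV), in which the synergist muscles of the plantaris are partly removed so that it has to grow, with cells taken after 5 days. Suspensions were sorted for VCAM, a surface protein of muscle stem cells (MuSCs), and against CD31, CD45 and Sca1, which mark endothelial, immune and mesenchymal cells, before droplet capture with a 3′ kit. There was 1 library per condition, and the labels name a single mouse where the study's methods speak of several, so the number of animals behind a library is not known here.

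HGF is made as an inactive precursor that is held in the muscle matrix and cleaved by proteases of the urokinase type, and it acts through the receptor tyrosine kinase MET. FGFs act through receptor tyrosine kinases that need heparan sulfate to bind their ligand, and syndecans are membrane proteins that carry such chains. Both pathways are known for bringing satellite cells, the MuSCs of adult muscle, out of quiescence and for keeping myoblasts dividing, and sprouty proteins damp the signal downstream. Fgfrl1 is the family member that lacks a tyrosine kinase domain.

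Cells were grouped by unique molecular identifiers (UMIs), each counting 1 captured molecule, of marker genes that included none of the 10. A level is given as CPM, the UMIs of a gene per 1000000 UMIs of the group, and the 95% intervals cover counting error only. The Sham library held 1100 barcodes with 7302661 UMIs and the Overload library 3854 with 88498487. MuSC-marker cells (Pax7, Myf5, Myod1, Cdh15, Chodl) numbered 116 in Sham, with a median of 8052 UMIs, and 1501 in Overload, with a median of 22453. Among them the quiescence-marker cells (markers that included Chrdl2, Calcr and Chodl) numbered 80 and 288, those high in immediate-early genes (Fos, Fosb, Egr1, Atf3) 14 and 42, and those with the matrix genes Gpc3 and Islr 0 and 104. Cycling MuSCs were 9 and 699, the latter split into 122 in S phase and 577 in G2/M, and 13 and 368 MuSCs met none of these gates. Myocytes (Myog, Mymk, Mymx, Myh3, Myh8) numbered 1 and 201, fibre droplets with adult myosins (Myh1, Myh2, Myh4) 455 and 22, and Pdgfra+ cells 23 and 340. Of the 1501 Overload MuSCs, 288 lay within 1.5-fold of the quiescence threshold, so these states are ranges of a score and not separate types.

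The Pdgfra+ group held Dcn, a marker that was not used to make it. In Pdgfra+ cells Dcn stood at 23422 CPM in Sham and 3925 CPM in Overload, against 253 and 137 CPM in MuSC-marker cells. Pax7 was at 0 and 0.806 CPM in Pdgfra+ cells, against 129 and 76.3 CPM in MuSC-marker cells. It is a gene of the MuSC gate, so that split follows in part from the grouping and is no independent check. The sort had been set against Sca1, which Pdgfra+ muscle cells usually carry, so these are cells that passed it. The libraries shared 44 barcodes, and the shallower copy held a median of 2.11% of the UMIs of the deeper one. The shallower copies were left out. Of the 9 cycling Sham cells, 6 shared a barcode with Overload. The 9 held 483625 of the 1453156 UMIs of all Sham MuSC-marker cells. In Overload cycling cells held 29706023 of 45285522 UMIs. Levels over all MuSC-marker cells thus weigh cycling cells by their UMIs and not by their number.

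Met and Fgfr4, the HGF receptor and the FGF receptor best known from the myogenic lineage, were much higher in MuSC-marker cells than in Pdgfra+ cells in both libraries. Met stood at 68.8 CPM (100 UMIs) in Sham MuSC-marker cells and at 0 UMIs in the 23 Sham Pdgfra+ cells, at least 6.28-fold higher. In Overload it stood at 47.0 CPM (2128 UMIs) against 1.77 CPM (22 UMIs), 26.5-fold higher with a log2 ratio of 4.73 (95% interval 4.13 to 5.40).

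Fgfr4 followed the same split. Sham MuSC-marker cells had 113 CPM (164 UMIs) and Sham Pdgfra+ cells none, at least 10.3-fold higher. Overload MuSC-marker cells had 77.2 CPM (3495 UMIs) and Pdgfra+ cells 1.77 CPM (22 UMIs), 43.5-fold higher with a log2 ratio of 5.44 (4.84 to 6.12). The remainder seen in Overload Pdgfra+ cells was 3.77% of the MuSC level for Met and 2.30% for Fgfr4. The 5 genes of the MuSC gate stood in those Pdgfra+ cells at 0.938% to 1.66% of their MuSC level, and they had been used to keep MuSCs out of that group. What share of the Met and Fgfr4 UMIs there came from free RNA was not tested.

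The ligands lay on the other side. Hgf had 247 UMIs in the 340 Overload Pdgfra+ cells (19.9 CPM, interval 17.5 to 22.6), spread over 122 cells with at most 12 UMIs in a cell. The 1501 Overload MuSC-marker cells held 36 UMIs (0.795 CPM), 9 of them in 1 S-phase cell, and the quiescence-marker cells and the 201 myocytes held none. The level was 25.0-fold lower in MuSC-marker cells, a log2 ratio of -4.65 (-5.19 to -4.14). In Sham no UMI of Hgf was seen in any of the MuSC, myocyte, fibre or Pdgfra+ groups, and 0 UMIs in the 23 Pdgfra+ cells allow up to 11.0 CPM at the 3-count floor used throughout.

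Fgf7, an FGF of mesenchymal cells, stood at 43.8 CPM (12 UMIs) in Sham Pdgfra+ cells and 30.2 CPM (374 UMIs) in Overload ones. MuSC-marker cells held 0 UMIs in Sham, at least 21.2-fold lower, and 0.420 CPM (19 UMIs) in Overload, 71.9-fold lower with a log2 ratio of -6.17 (-6.92 to -5.50). The Sham sum for Fgf7 was below the 20 UMIs asked of a gene before it was counted. The trace of Hgf and Fgf7 in Overload MuSC-marker cells came to 3.99% and 1.39% of their Pdgfra+ level, where Dcn, Lum, Pi16, Col1a1 and Dpt, the genes that mark Pdgfra+ cells, came to 1.04% to 7.56%. Both values lay within the range of these genes, but that range is no uniform background. Dpt, its upper end, stood at 209 CPM in Overload quiescence-marker MuSCs and 11.6 CPM in G2/M cells. What share of the Hgf and Fgf7 UMIs in MuSC-marker cells came from free RNA was not tested.

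Fgf2, which lacks a classical signal peptide, was found in both lineages. Pdgfra+ cells had 32.9 CPM (9 UMIs) in Sham and 27.7 CPM (344 UMIs) in Overload. MuSC-marker cells had 15.8 CPM (23 UMIs) in Sham, where the interval of the ratio spanned no change (log2 ratio -1.05, -2.22 to 0.24). In Overload they had 2.61 CPM (118 UMIs), 10.6-fold lower than the Pdgfra+ cells (log2 ratio -3.41, -3.73 to -3.11). Fgf2 at 9.40% of its Pdgfra+ level was above each of the 5 Pdgfra+ marker genes in the pooled Overload MuSC-marker cells. In quiescence-marker MuSCs Fgf2 stood at 10.2 CPM against 27.7 CPM in Pdgfra+ cells, and Dpt at 209 against 437 CPM. Relative to its Pdgfra+ level Fgf2 was thus below Dpt in that state. What share of the Fgf2 UMIs in MuSC-marker cells came from free RNA was not tested.

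Fgfr1, the FGF receptor shared by many cell types, was high on both sides. Sham MuSC-marker cells had 321 CPM (466 UMIs) and Sham Pdgfra+ cells 256 CPM (70 UMIs), a difference within the counting interval (log2 ratio 0.33, -0.04 to 0.71). When each cell was thinned to 2000 UMIs, which gives cells equal weight, that value was 1.79, with a UMI in 56.0% of Sham MuSC-marker cells and 26.1% of Sham Pdgfra+ cells. In Overload the values were 109 CPM (4948 UMIs) and 220 CPM (2735 UMIs), 2.02-fold lower in MuSC-marker cells (log2 ratio -1.01, -1.08 to -0.95). The Overload value sat at the 2-fold line and came to -0.66 when thinned and to -0.67 as a mean of CPM per cell. The order of the pooled groups thus held in Overload while its size did not. That order was not the same for every MuSC state. Overload quiescence-marker MuSCs stood at 245 CPM, above the 220 CPM of Pdgfra+ cells with intervals that just missed each other. Every other MuSC state lay below the Pdgfra+ cells.

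Of the syndecans Sdc1, Sdc2 and Sdc3, Sdc2 was the one past 2-fold, on the Pdgfra+ side in both libraries. It stood at 522 CPM (143 UMIs) in Sham Pdgfra+ cells against 77.8 CPM (113 UMIs) in MuSC-marker cells, and at 252 CPM (3128 UMIs) against 87.7 CPM (3972 UMIs) in Overload. The log2 ratios were -2.75 (-3.12 to -2.38) and -1.52 (-1.59 to -1.46). Sdc1 (61.9 against 62.3 CPM), Sdc3 (16.8 against 17.7 CPM) and Fgfrl1 (7.71 against 7.82 CPM) had near-equal levels in Overload MuSC-marker and Pdgfra+ cells, with all 3 log2 ratios between -0.07 and -0.01. The widest of their intervals, that of Fgfrl1, ran from -0.35 to 0.32, though with cells thinned to 2000 UMIs its value was 1.56.

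A gene was called past 2-fold when its log2 ratio, or its bound against 0 UMIs, reached 1 in size and the interval lay on 1 side of 0, among genes with at least 20 summed UMIs. By that rule 7 of 10 members differed between MuSC-marker and Pdgfra+ cells in Overload, 2 higher in MuSC-marker cells and 5 lower, where 33.4% of all 13839 genes counted did. In Sham 3 of 7 did, against 28.5% of 6881 genes. Hgf, Fgf7 and Fgfrl1 had too few Sham UMIs to be counted, and in the state comparisons that counted 8 members Hgf and Fgf7 were the ones left out. The medians were 1.25 over the 7 members counted in Sham and -0.54 over the 10 in Overload, beside 0.13 and 0.09 over all genes. These 2 medians cover different members, so their difference in sign is no change between the libraries. In Sham, Met and Fgfr4 reached the 20 UMIs through the MuSC-marker cells alone. With 1 library per condition there is no test and no p-value here.

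**Figure D1:**
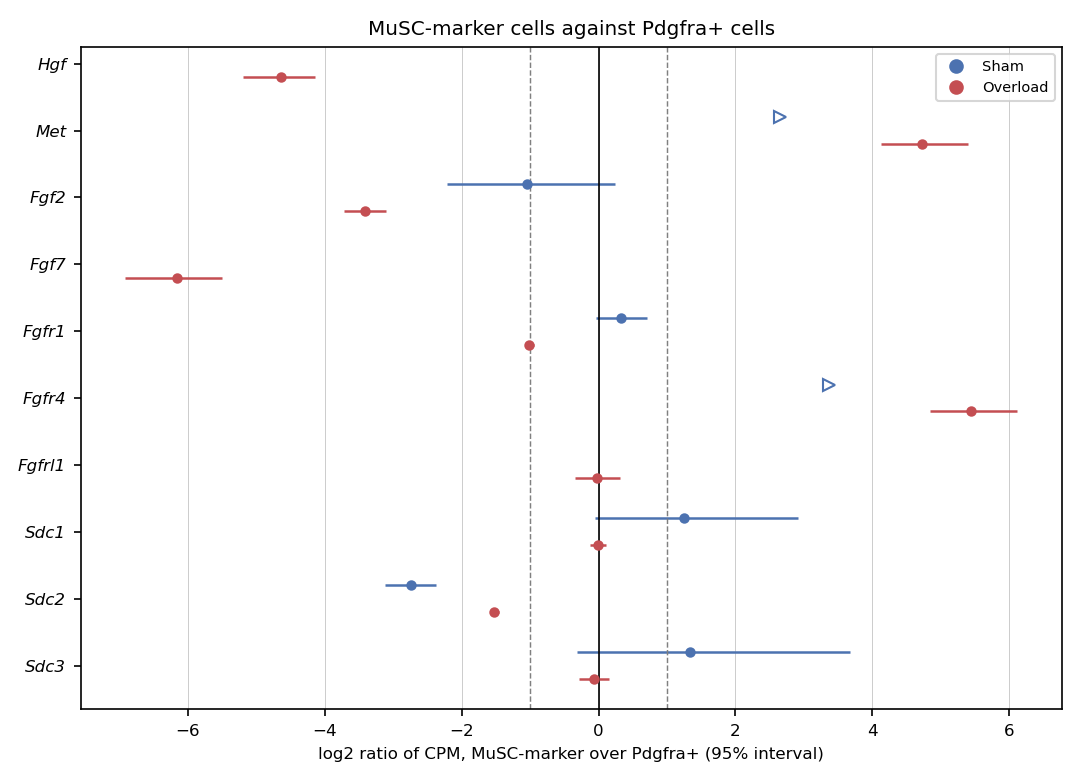
Log2 ratio of CPM in MuSC-marker cells over Pdgfra+ cells for each gene (rows), in Sham (blue) and Overload (red), with exact 95% counting intervals. Open triangles are bounds against 0 UMIs, pointing to the side on which the value may lie, dashed lines mark 2-fold, and genes with fewer than 20 summed UMIs are not drawn. Met and Fgfr4 lie to the right in both libraries, and Hgf, Fgf7, Fgf2 and Sdc2 lie to the left in Overload.

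The start-site windows of the genes that split most widely are shown for the sequence context of this pattern. Positions are from RefSeq on GRCm38.p6, all on the + strand, 250 bases before to 50 after the start, and capitals mark CAGGTG, an E-box of the kind that basic helix-loop-helix factors bind. Windows were found for 8 of the 10 genes.

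Met, chr6:17463707-17464006, higher in MuSC-marker cells: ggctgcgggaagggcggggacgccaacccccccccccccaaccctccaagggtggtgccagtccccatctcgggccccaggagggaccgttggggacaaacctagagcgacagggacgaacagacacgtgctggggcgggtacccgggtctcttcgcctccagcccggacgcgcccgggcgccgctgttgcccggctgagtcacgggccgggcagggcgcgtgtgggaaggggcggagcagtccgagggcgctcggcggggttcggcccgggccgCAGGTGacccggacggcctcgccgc

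Fgfr4, chr13:55152568-55152867, higher in MuSC-marker cells: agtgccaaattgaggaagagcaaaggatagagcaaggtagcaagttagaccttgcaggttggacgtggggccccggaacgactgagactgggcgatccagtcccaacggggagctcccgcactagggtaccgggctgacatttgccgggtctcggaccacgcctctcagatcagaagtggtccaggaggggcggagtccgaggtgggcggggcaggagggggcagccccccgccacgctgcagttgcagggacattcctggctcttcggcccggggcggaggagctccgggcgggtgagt

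Hgf, chr5:16553245-16553544, the first of 2 windows, higher in Pdgfra+ cells: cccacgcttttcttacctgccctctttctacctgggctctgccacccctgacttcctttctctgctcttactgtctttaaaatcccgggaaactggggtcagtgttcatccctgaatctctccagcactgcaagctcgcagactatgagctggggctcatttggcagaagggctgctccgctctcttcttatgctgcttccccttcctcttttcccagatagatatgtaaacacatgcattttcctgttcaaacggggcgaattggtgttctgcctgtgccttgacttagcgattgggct

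Fgf7, chr2:126034408-126034707, higher in Pdgfra+ cells: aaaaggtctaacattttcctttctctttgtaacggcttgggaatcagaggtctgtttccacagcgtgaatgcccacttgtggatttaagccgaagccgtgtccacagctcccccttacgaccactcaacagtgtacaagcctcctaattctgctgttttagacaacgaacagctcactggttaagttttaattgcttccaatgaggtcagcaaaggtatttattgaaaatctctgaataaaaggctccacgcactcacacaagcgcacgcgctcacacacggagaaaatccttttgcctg

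The GC content was 75.7% for Met and 65.3% for Fgfr4, against 51.3% for Hgf and 45.7% for Fgf7, with a median of 52.7% over all 32851 windows. Sdc3 (77.7%), Fgfrl1 (73.7%) and Sdc1 (66.3%), with near-equal Overload levels in MuSC-marker and Pdgfra+ cells, were also above Fgfr4. Fgf2, lower in Overload MuSC-marker cells, had 62.7%. On either strand CAGCTG was present in 16.3% of all windows and CAGGTG in 20.2%, and 32.9% held at least 1 of them. Of the 9 windows of the 8 genes, 1 held such a motif, that of Met. A match is a description of these letters and not a bound site.

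The gene bodies are given from GENCODE M21 on the same build, all on the + strand. Hgf runs from 16553495 to 16620152 on chromosome 5, Met from 17463800 to 17573980 on chromosome 6, Fgfr1 from 25513654 to 25575718 on chromosome 8, and Fgfr4 from 55152640 to 55168759 on chromosome 13. Fgf2 runs from 37348346 to 37410108 on chromosome 3, Fgf7 from 126034658 to 126091185 on chromosome 2, and Fgfrl1 from 108692382 to 108706924 on chromosome 5. Sdc1 runs from 8771323 to 8793715 on chromosome 12, Sdc2 from 32920723 to 33034935 on chromosome 15, and Sdc3 from 130792537 to 130826319 on chromosome 4. Fgf2 is overlapped on the other strand by Nudt6 and Fgf2os, Fgf7 by Fam227b, Fgfr1 by Gm16159, and Sdc3 by Gm12970 and Gm26716. In the Overload MuSC-marker and Pdgfra+ cells Nudt6 had 5.43 and 2.50 CPM, where Fgf2 had 2.61 and 27.7 CPM. Fam227b had at most 1 UMI in each of these groups. In Sham fibre droplets Nudt6 had 30.2 CPM (86 UMIs), where Fgf2 had 3.16 CPM (9 UMIs). Whether Nudt6 adds to the Fgf2 counts was not tested.

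Levels across the Overload MuSC states separated the receptors. Fgfr1 was highest in quiescence-marker MuSCs at 245 CPM (229 to 261) and lower in each other state. It stood at 134 CPM in the MuSCs that met no state gate, 130 CPM in matrix MuSCs and 116 CPM in immediate-early-high MuSCs, which did not differ beyond their intervals. S-phase cells at 89.9 CPM overlapped both the immediate-early-high cells and G2/M cells at 82.7 CPM, and myocytes were lower at 64.5 CPM (59.4 to 69.9). Cycling MuSCs were 2.93-fold below quiescence-marker MuSCs (log2 ratio -1.55, -1.66 to -1.44), and myocytes 3.80-fold below (-1.92, -2.08 to -1.77).

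Met moved little over the same states. Its levels ran from 56.3 CPM in matrix MuSCs through 48.7 CPM in quiescence-marker and 44.4 CPM in G2/M cells to 38.5 CPM in myocytes, and each state's interval overlapped the next. The log2 ratio to quiescence-marker MuSCs was -0.12 (-0.35 to 0.11) in cycling cells and -0.34 (-0.60 to -0.07) in myocytes. Met had 352 UMIs in the myocytes, in 121 of 201 cells.

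Fgfr4 lay between these patterns. It was highest in immediate-early-high MuSCs at 138 CPM (112 to 167), followed by quiescence-marker MuSCs at 95.7 CPM (85.9 to 106). G2/M (76.1 CPM), the ungated state (72.7 CPM), S-phase (71.7 CPM) and matrix (66.5 CPM) overlapped in order, and myocytes stood below them at 41.4 CPM (37.4 to 45.8). The log2 ratio of myocytes to quiescence-marker MuSCs was -1.21 (-1.42 to -0.99), but it came to -0.85 with cells thinned to 2000 UMIs, with an interval of -1.65 to -0.11.

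Fgfrl1 was low throughout, from 4.70 CPM in myocytes to 13.1 CPM in S-phase MuSCs, and cycling cells stood above quiescence-marker MuSCs by a log2 ratio of 0.77 (0.08 to 1.55). Fgf2 was the ligand found in quiescence-marker MuSCs, where Hgf and Fgf7 had 0 UMIs. It had 10.2 CPM (37 UMIs) in quiescence-marker MuSCs, 2.57 CPM (23 UMIs) in the ungated state, 1.85 CPM (55 UMIs) in cycling cells, 1.33 CPM (3 UMIs) in matrix cells and 0.656 CPM (6 UMIs) in myocytes. Quiescence-marker MuSCs thus lay above each other state and the myocytes, with log2 ratios of -1.99 for the ungated state, -2.46 for cycling cells, -2.94 for matrix cells and -3.96 for myocytes. Hgf lay below Fgf2 in G2/M cells, at 0.616 CPM (16 UMIs) against 1.81 CPM. It was also lower in ungated MuSCs, at 0.335 CPM (3 UMIs) against 2.57 CPM. In S-phase (Hgf 2.93 CPM from 11 UMIs, Fgf2 2.13 CPM) and matrix cells (Hgf 2.66 CPM from 6 UMIs, Fgf2 1.33 CPM) the intervals overlapped. Fgf7 had at most 13 UMIs in a state.

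Sdc1 and Sdc2 were highest in matrix cells among the MuSC states, and Sdc3 in quiescence-marker cells. Sdc1 was highest in matrix MuSCs at 130 CPM (115 to 146), against 73.4 CPM in quiescence-marker MuSCs, 52.7 CPM in cycling cells and 40.8 CPM in myocytes. The log2 ratio of matrix to quiescence-marker MuSCs was 0.82 (0.58 to 1.07). Sdc2 was also highest among MuSC states in matrix cells, at 152 CPM (137 to 169), with 97.6 CPM in quiescence-marker MuSCs and 52.5 CPM in myocytes, but its interval there overlapped that of the immediate-early-high cells. Sdc3 ran from 21.5 CPM in quiescence-marker MuSCs to 11.96 CPM in matrix MuSCs, and neighbours in that order overlapped. None of the syndecan members passed 2-fold in any state or in myocytes.

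By the 2-fold rule 1 of 8 members differed in the ungated state, where 11.5% of all genes did, 1 of 8 in matrix MuSCs (11.9%) and 2 of 8 in immediate-early-high MuSCs (11.5%), in which Fgf2 had 0 UMIs. In cycling MuSCs 2 of 9 differed (23.8%), and in myocytes 3 of 8 (32%), all of them lower. Between myocytes and cycling MuSCs 2 of 10 passed (16.4%), Fgf2 at -1.50 and Hgf, with no UMI in myocytes, at least 2.77-fold lower. Each of these shares rests on few genes, and those of cycling cells and myocytes lay near the share of all genes.

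**Figure D2:**
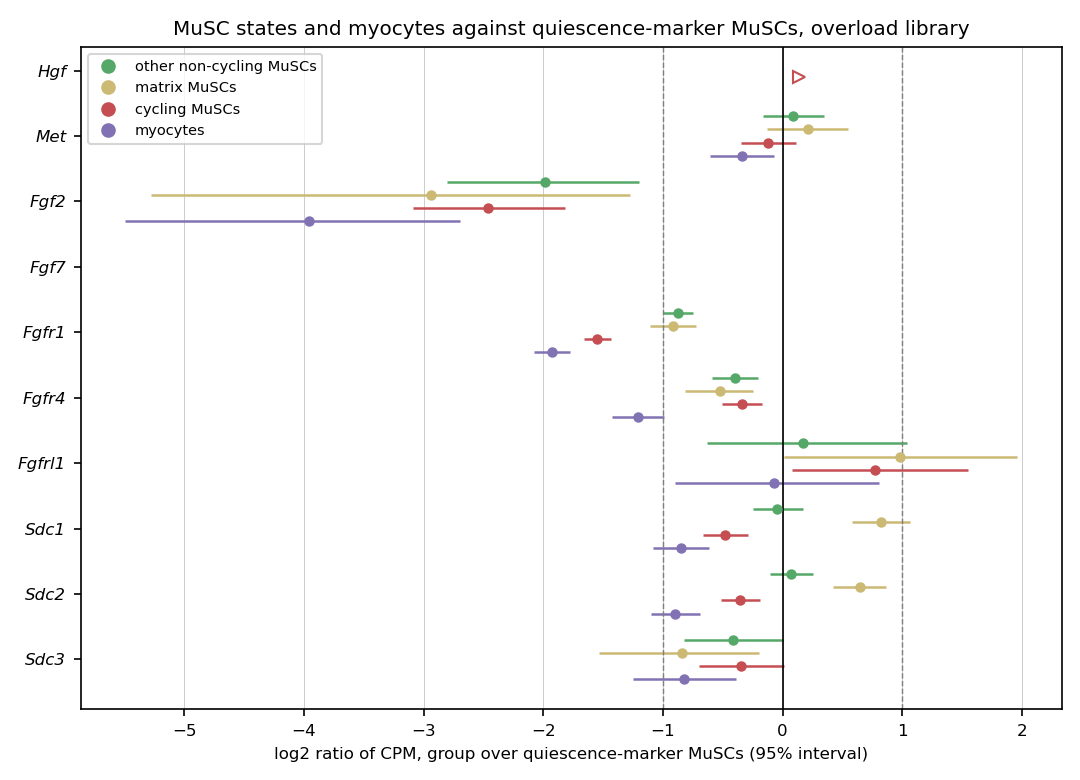
Log2 ratio of CPM of MuSC states and myocytes over quiescence-marker MuSCs in the Overload library, with exact 95% counting intervals. Points left of 0 are lower than in quiescence-marker MuSCs, and open triangles are bounds against 0 UMIs. Fgf2 and Fgfr1 lie to the left in all 4 groups, Met stays near 0, and Sdc1 and Sdc2 lie to the right of 0 beyond their intervals in matrix MuSCs and to the left in cycling MuSCs and myocytes.

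**Figure D3:**
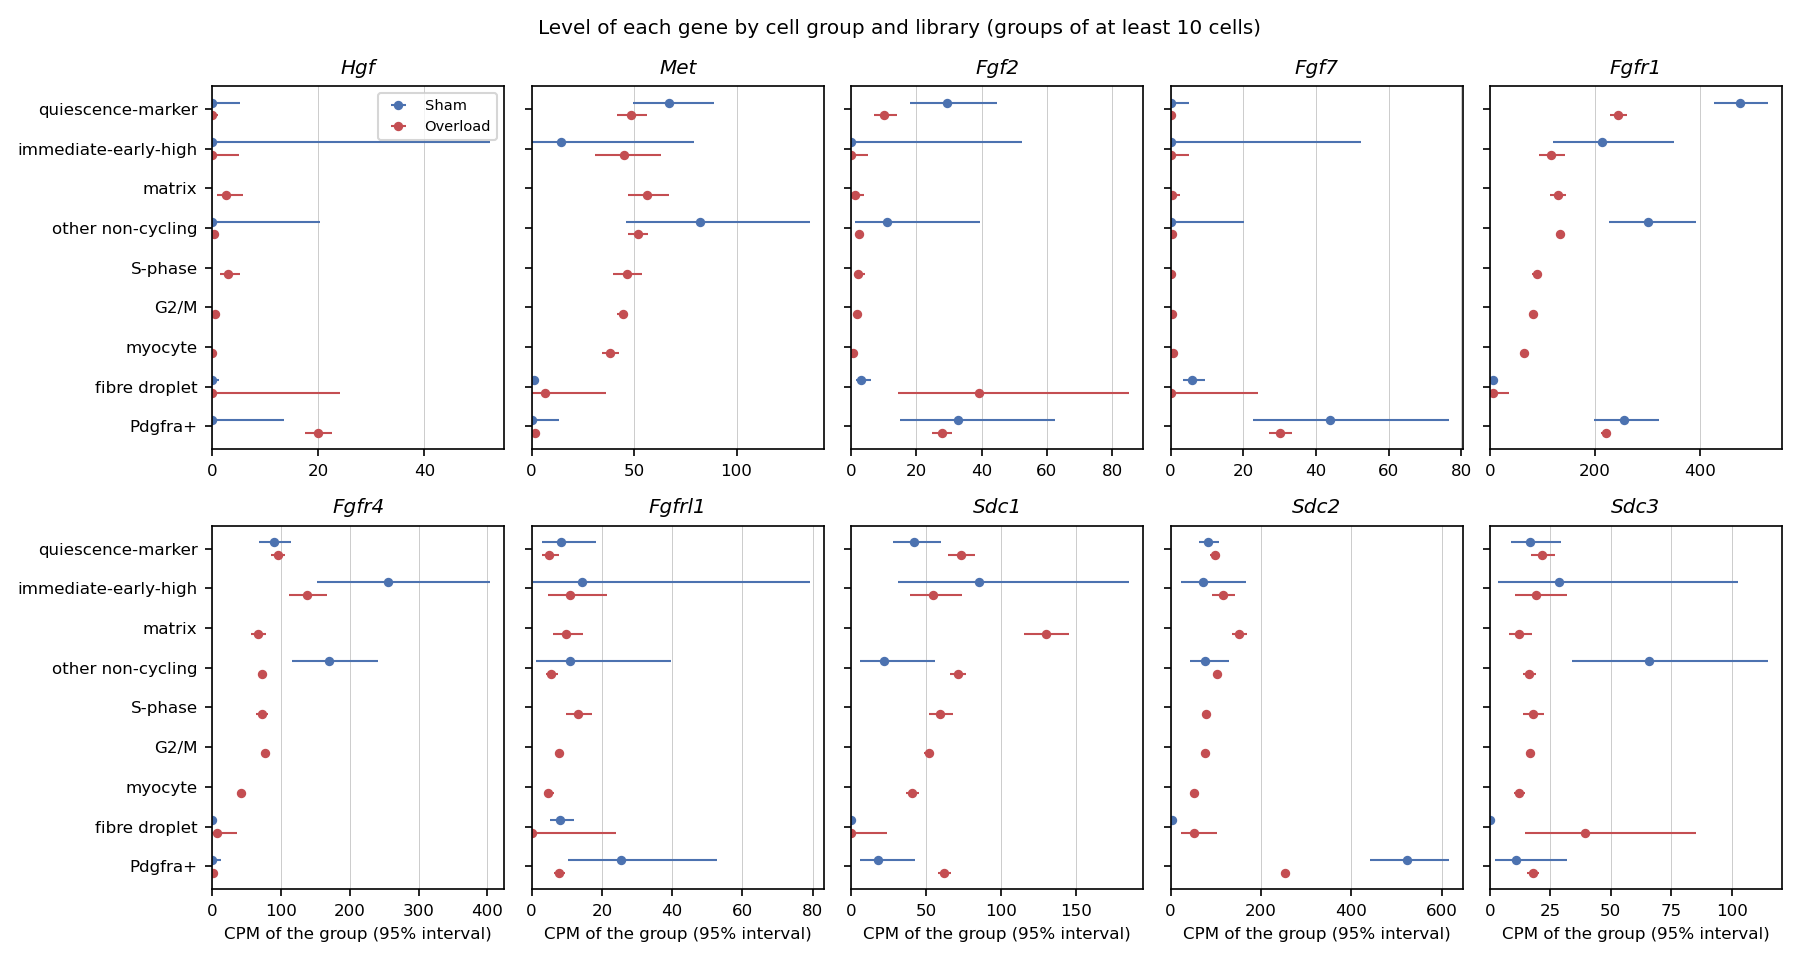
Level of each gene in CPM (x axis, linear, different for each panel) in the cell groups of Sham (blue) and Overload (red) with at least 10 cells, with exact 95% intervals. Among the groups drawn, which leave out cells that met no gate or another lineage's, Hgf is above 3 CPM in Overload Pdgfra+ cells alone, Met and Fgfr4 are near 0 in Pdgfra+ cells, and Fgfr1 is higher in Sham than in Overload quiescence-marker MuSCs.

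Between the libraries Fgfr1 and Fgf2 were lower in MuSCs after overload. Fgfr1 went from 321 CPM in all Sham MuSC-marker cells to 109 CPM in Overload, 2.93-fold lower (log2 ratio -1.55, -1.69 to -1.41). Within quiescence-marker MuSCs it went from 477 CPM (342 UMIs) to 245 CPM (890 UMIs), 1.95-fold lower (-0.96, -1.14 to -0.78). Thinned to 2000 UMIs per cell, 63.8% (52.2% to 74.2%) of the 80 Sham and 37.5% (31.9% to 43.4%) of the 288 Overload quiescence-marker MuSCs had a UMI of Fgfr1, though without thinning the shares were 91.3% and 89.2%.

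Fgf2 went from 15.8 CPM (23 UMIs) to 2.61 CPM (118 UMIs) over all MuSC-marker cells, 6.07-fold lower (-2.60, -3.26 to -1.89). In quiescence-marker MuSCs it went from 29.3 CPM (21 UMIs) to 10.2 CPM (37 UMIs), 2.88-fold lower (-1.53, -2.34 to -0.68). The Sham value in quiescence-marker MuSCs came from 16 cells. At 2000 UMIs per cell 1 of the 80 Sham and 4 of the 288 Overload quiescence-marker MuSCs had a UMI of Fgf2, too few to compare.

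Met and Fgfr4 moved less. Met was at 68.8 and 47.0 CPM over all MuSC-marker cells (log2 ratio -0.55, -0.84 to -0.25) and at 67.0 and 48.7 CPM in quiescence-marker MuSCs (-0.46, -0.93 to 0.03). Fgfr4 was at 113 and 77.2 CPM (-0.55, -0.77 to -0.31) and at 89.3 and 95.7 CPM (0.10, -0.29 to 0.51). With every cell at 2000 UMIs, 8.62% of Sham and 8.56% of Overload MuSC-marker cells had a UMI of Met, and 20.7% and 16.5% had one of Fgfr4. The intervals of these shares overlapped for both receptors. At 4000 UMIs per cell they overlapped for Met (20.9% and 16.7%) but not for Fgfr4, which was seen in 42.7% (33.3% to 52.5%) of Sham and 30.5% (28.2% to 32.9%) of Overload MuSC-marker cells.

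Sdc1 was higher in Overload MuSC-marker cells, at 61.9 against 43.4 CPM (log2 ratio 0.51, 0.15 to 0.90), and in quiescence-marker MuSCs, at 73.4 against 41.8 CPM (0.81, 0.26 to 1.41), the latter coming to 0.19 with a mitochondrial limit of 5% in place of 10%. Sdc2 stood at 87.7 and 77.8 CPM (0.17, -0.10 to 0.46). Sdc3 was lower over all MuSC-marker cells, at 16.8 against 27.5 CPM (-0.71, -1.17 to -0.21), but came to -0.09 once both copies of the shared barcodes were left out. Fgfrl1 stood at 7.71 and 8.26 CPM, with an interval of -0.92 to 0.87. None of these 4 genes passed 2-fold.

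By the rule 2 of 9 members differed between the libraries over all MuSC-marker cells, against 15.6% of all genes, and 1 of 8 in quiescence-marker MuSCs, against 16.1%. Immediate-early genes moved in the same direction as Fgfr1 and Fgf2: the 4 gate genes had a median of 1005 CPM per quiescence-marker MuSC in Sham and 558 CPM in Overload. Myod1, a MuSC gate gene, stood at 935 CPM in Sham and 152 CPM in Overload quiescence-marker MuSCs. A mitochondrial limit of 5% left 40 of the 116 Sham and 1412 of the 1501 Overload MuSC-marker cells, and the log2 ratios over all MuSC-marker cells were then -1.21 for Fgfr1 and -3.02 for Fgf2. The part of immediate-early genes and of Myod1 in the differences was not tested.

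Pdgfra+ cells changed in other members. Sdc1 went from 18.3 CPM (5 UMIs) in Sham to 62.3 CPM (773 UMIs) in Overload, 3.41-fold higher (log2 ratio 1.77, 0.54 to 3.40). Sdc2 went from 522 CPM (143 UMIs) to 252 CPM (3128 UMIs), 2.07-fold lower (-1.05, -1.29 to -0.80), with up to 27 of the Sham UMIs in 1 cell. Fgfrl1 went from 25.6 CPM (7 UMIs) to 7.82 CPM (97 UMIs), 3.27-fold lower (-1.71, -2.81 to -0.36).

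Hgf went from 0 UMIs to 19.9 CPM in Pdgfra+ cells, at least 1.82-fold higher, short of the 2-fold line, with the low end of the log2 interval at 0.55. Fgf2, Fgf7, Fgfr1 and Sdc3 had intervals that included no change, and for Met and Fgfr4, with 22 Overload UMIs each against 0, no direction could be read. In all 3 of 10 members passed 2-fold, against 15.6% of all genes. The Sham side is 23 cells with 273968 UMIs in all. The markers of these cells also differed between the libraries, with Pdgfra at 478 CPM in Sham and 167 CPM in Overload and Dcn at 23422 and 3925 CPM, and 150 Overload cells lay within 1.5-fold of the Pdgfra threshold. The same immediate-early genes had a median of 5750 CPM per Pdgfra+ cell in Sham and 1145 CPM in Overload, and the part of these differences was not tested.

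**Figure D4:**
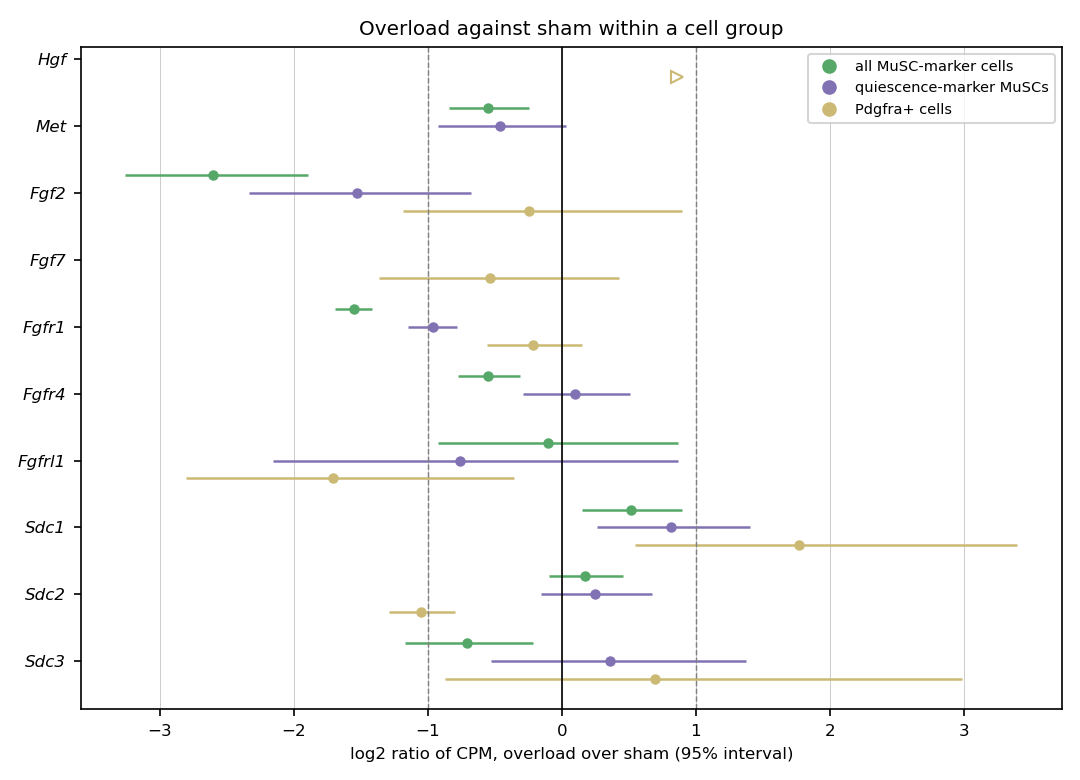
Log2 ratio of CPM, Overload over Sham, within all MuSC-marker cells (green), quiescence-marker MuSCs (purple) and Pdgfra+ cells (yellow), with exact 95% counting intervals and dashed lines at 2-fold. The open triangle is the bound for Hgf against 0 Sham UMIs. Fgfr1 and Fgf2 lie to the left in both MuSC groups, and Sdc1 lies to the right in all 3.

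Fibre droplets, which carry cytoplasm of adult muscle fibres, held few molecules of these genes in Sham. In the 455 Sham droplets (median 3800 UMIs) Fgfr4, Sdc1, Sdc3 and Hgf had 0 UMIs, Met 3 UMIs, Sdc2 7, Fgf2 9 and Fgfr1 15. Fgfr1 was 90.7-fold below Sham quiescence-marker MuSCs (5.26 against 477 CPM), and Fgfr4 was at least 84.8-fold below. Of 7 members with enough UMIs 6 were lower. Of all 7294 genes counted, 3175 were lower and 1910 higher past 2-fold, 69.7% in both directions, and the median was -0.58. Fgfr4 and Sdc1, with 0 UMIs in the droplets, reached the minimum of UMIs through the quiescence-marker MuSCs alone.

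Fgfrl1 and Fgf7 were the members with UMIs in these droplets that were not lower than in Sham quiescence-marker MuSCs. Fgfrl1 had 23 UMIs in 21 droplets (8.07 CPM, 5.11 to 12.1), the same level as in quiescence-marker MuSCs within counting error (log2 ratio -0.05, -1.39 to 1.53). Fgf7 had 17 UMIs in 13 droplets (5.96 CPM, 3.47 to 9.55), 13.6% of its Pdgfra+ level, while Dcn, Dpt, Col1a1, Pi16 and Lum were at 0% to 0.310% of theirs. Fam227b on the other strand of Fgf7 had 1 UMI in these droplets. In the 22 Overload droplets, Fgf2 and Sdc3 had 6 UMIs each, with 5 of the 6 in 1 droplet for either gene. Sdc2 had 8 UMIs in 5 of these droplets (52.2 CPM, 22.5 to 103), and Sdc4 stood at 366 CPM.

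The share of cells with a UMI was taken at 2000 UMIs per cell, a depth at which single cells hold few molecules of these genes. Met was seen in 8.56% (7.19% to 10.1%) of Overload MuSC-marker cells and 7.98% (4.53% to 12.8%) of myocytes, and in 0 of 340 Pdgfra+ cells, which allows up to 0.882% with a UMI at this depth, against 4.71% unthinned. Fgfr4 was seen in 16.5%, 9.57% and 0.588% of these groups, and in 0 of 335 Sham fibre droplets. Hgf was seen in 4.12% (2.27% to 6.81%) of Overload Pdgfra+ cells and in 0 of 1495 MuSC-marker cells, which allows up to 0.201% at this depth. At 4000 UMIs per cell Hgf was seen in 7.08% of the Pdgfra+ and 0.269% of the MuSC-marker cells. Unthinned, at median depths of 36028 and 22453 UMIs, the shares for Hgf were 35.9% and 1.199%.

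**Figure D5:**
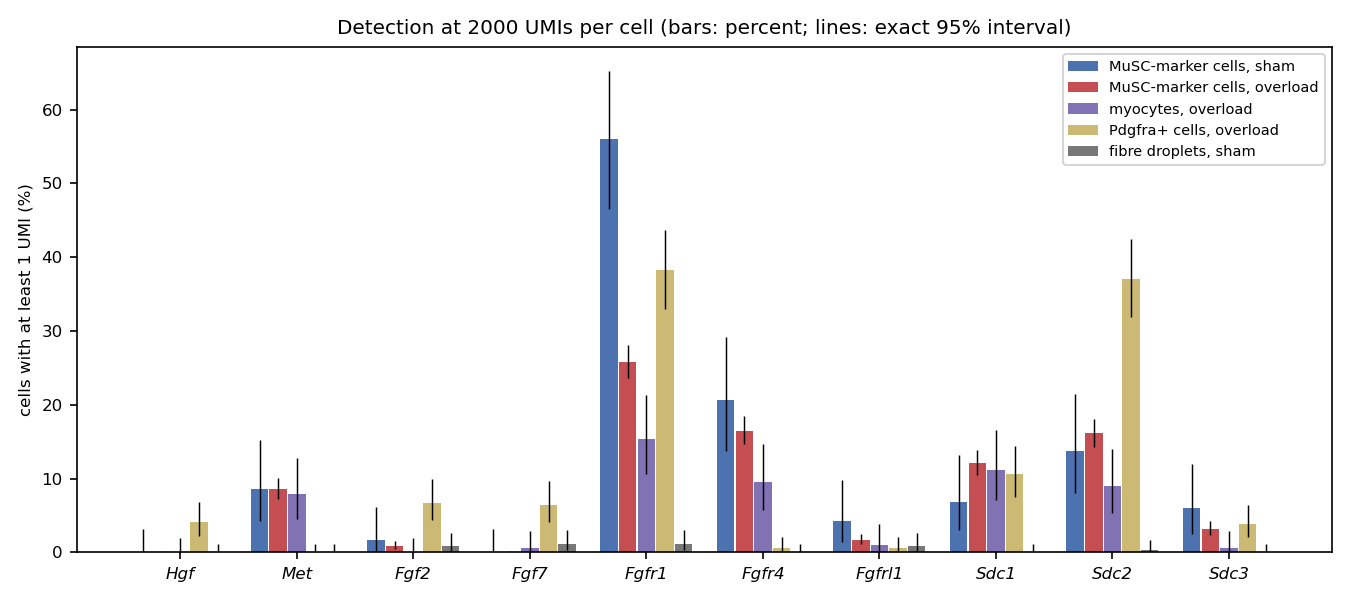
Percent of cells with at least 1 UMI of each gene after thinning every cell to 2000 UMIs (bars), with exact 95% binomial intervals (black lines), in MuSC-marker cells of both libraries, Overload myocytes, Overload Pdgfra+ cells and Sham fibre droplets. Fgfr1 is seen in 56.0% of Sham and 25.8% of Overload MuSC-marker cells, Met and Fgfr4 mainly in MuSC-marker cells and myocytes, and Hgf in Pdgfra+ cells alone among the groups drawn.

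Of the 69 other genes listed for these pathways, 59 had enough UMIs to compare MuSC-marker and Pdgfra+ cells in Overload. In MuSC-marker cells 8 were higher and 16 lower, with a median log2 ratio of -0.20 beside 0.09 over all genes. The share of all genes called in that comparison was 33.4%. Of the 17 heparan sulfate enzymes counted, 8 were lower and 2 higher. The sulfatase Sulf2, which trims sulfate groups from heparan sulfate, stood at 6.54 against 110 CPM (log2 ratio -4.08, -4.26 to -3.89), and Xylt1, which starts the chain, at 0.309 against 15.6 CPM (-5.66). Fgf18 (-5.50) and Fgf1 (-4.71) were further ligands on the Pdgfra+ side.

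Sdc4, the syndecan outside the 10 genes, was on the MuSC side in both libraries. It stood at 1745 against 142 CPM in Sham (log2 ratio 3.62, 3.16 to 4.11) and 947 against 138 CPM in Overload (2.78, 2.71 to 2.85). None of the syndecan members was past 2-fold on that side, and Sdc1 (1.25) and Sdc3 (1.33) had Sham log2 ratios whose intervals spanned 0. Fgf13 (3.58), Fgf11 (3.37) and Fgfbp1 (4.13) were the other leading genes on the MuSC side in Overload, each below 8 CPM.

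In Sham 34 of the 69 could be compared, 4 higher and 7 lower in MuSC-marker cells, with a median of -0.26, where 28.5% of all genes were called. Plaur, the urokinase receptor, was higher there (226 against 43.8 CPM), while Plau, urokinase itself (55.1 against 318 CPM), and Plat, the tissue-type plasminogen activator (47.5 against 314 CPM), were lower. Hs6st2, a heparan sulfate sulfotransferase, was higher (92.2 against 3.65 CPM), and Sulf2 had no UMI in MuSC-marker cells, at least 42.4-fold lower. In Overload Plaur stood at 78.1 and 69.3 CPM in MuSC-marker and Pdgfra+ cells and was not past 2-fold.

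Across the states 3 of 53 listed genes were higher in cycling MuSCs than in quiescence-marker MuSCs and 13 were lower, with a median of -0.34, where 23.8% of all genes were called. Spred1 (-1.68) and Spry1 (-1.62), inhibitors of the signal, were among the lower ones, and Etv4 (1.77), a transcription factor induced by FGF signals, was higher. In myocytes 4 of 50 were higher and 18 lower, with a median of -0.52, against 32% of all genes called. Fgfbp1, a secreted FGF carrier, had 21.5 CPM in myocytes and no UMI in quiescence-marker MuSCs, at least 26.1-fold higher. Fgf21 (8.96 against 0.275 CPM) and Fgf11 (14.4 against 4.95 CPM) were higher too, while Plaur (-3.06) and Plat (-3.06) were lower. Sdc4 fell from 2074 CPM in quiescence-marker MuSCs to 760 CPM in cycling cells and 503 CPM in myocytes.

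The remaining state comparisons moved fewer genes of the list. In the ungated state 2 of 48 were higher and 4 lower (median -0.21, all genes called 11.5%), in matrix MuSCs 1 of 43 and 5 (-0.07, 11.9%), and in immediate-early-high MuSCs 2 of 42 and 3 (-0.18, 11.5%). Plaur was lower in all 3, and Etv1 was the gene higher in matrix MuSCs (25.3 against 7.15 CPM). Dusp5 and Spry4, both induced by the kinase cascade they restrain, were higher in immediate-early-high MuSCs, at log2 ratios of 1.62 and 1.45. Between myocytes and cycling MuSCs 4 of 54 were higher and 4 lower (median -0.34, all genes called 16.4%).

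Between the libraries 3 of 56 listed genes were higher and 4 lower over all MuSC-marker cells (median -0.04, beside 0.09 over all genes), and 3 of 40 each way in quiescence-marker MuSCs (0.18 beside 0.20), where 15.6% and 16.1% of all genes were called. Spry2, an inhibitor of receptor tyrosine kinase signals, stood at 237 CPM in Sham and 57.8 CPM in Overload MuSC-marker cells (log2 ratio -2.03, -2.20 to -1.87) and at 338 and 89.7 CPM in quiescence-marker MuSCs (-1.91, -2.16 to -1.67). Plaur (-1.54), Spred1 (-1.17) and Extl3 (-1.09) were the other lower genes over all MuSC-marker cells. Etv4 was higher there, at 11.7 CPM (530 UMIs) against 1.38 CPM (2 UMIs), with a log2 interval of 1.23 to 6.14. Fgf11 (7.51 against 2.75 CPM, 4 Sham UMIs) and Sulf2 (0 Sham UMIs), at least 3.17-fold, were higher too. Cycling cells were 9 of 116 MuSC-marker cells in Sham and 699 of 1501 in Overload. Within Overload, Etv4 stood at 15.0 CPM in cycling and 4.40 CPM in quiescence-marker MuSCs. The part of this mix of states in these differences was not tested. Spry2 was also lower in Overload Pdgfra+ cells (60.5 against 190 CPM, -1.65), where 3 of 52 listed genes were higher and 10 lower and 15.6% of all genes were called. There Spry1 (-1.73), Etv1 (-2.66) and Plau (-1.95) were lower. In fibre droplets 2 of 27 were higher than in quiescence-marker MuSCs and 24 lower, with a median of -5.05 and 69.7% of all genes called, and Fgf13 (27.0 against 4.18 CPM) was 1 of the 2.

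Over the 10 groups of at least 30 cells in both libraries, Met and Fgfr4 were the pair of members with the most similar levels (Pearson r = 0.980 of log2(CPM + 1)). Both stood at 1.77 CPM in Overload Pdgfra+ cells, and at 1.05 and 0 CPM in Sham fibre droplets. That r thus covers the split between lineages as well as the MuSC states. Among 9415 genes, those most like Met were Cd82 (0.993), Iqsec3 (0.9898) and Rpl36 (0.986), and those most like Fgfr4 were Drp2 (0.991), Tspan12 (0.98996) and Myf5 (0.987). Myf5 is a gene of the MuSC gate, so its split between these groups follows in part from the grouping. Fgfr1 was most like Elf1 (0.997), Tgoln1 (0.992) and Ier5 (0.992). Hgf was most like Ptpn18 (0.947), Ltbp2 (0.943) and Stxbp6 (0.931), and Fgf7 most like Penk (0.954), Vegfd (0.947) and Cpxm2 (0.932). The nearest to Fgf2 were Col22a1 (0.945), Zdhhc5 (0.926) and Arntl (0.921), and the nearest to Fgfrl1 only reached 0.779 (Tinf2), 0.766 (Ercc6l2) and 0.756 (Pip5k1c). Sdc1 was nearest to Cald1 (0.996), Zfp236 (0.994) and Il10rb (0.994), Sdc2 to Fndc1 (0.994), Pgm3 (0.993) and Ssr3 (0.992), and Sdc3 to Cggbp1 (0.993) and Robo1 (0.9897). In Sham fibre droplets, 1 of the 10 groups, Fgfr1 stood at 5.26 CPM, Sdc2 at 2.46 CPM and Sdc1 and Sdc3 at 0 CPM. Their r values thus also cover the split from that group. Hgf and Fgf7 were highest in the Overload Pdgfra+ cells, and the 23 Sham Pdgfra+ cells were too few to enter. Their r values thus also cover the split of that 1 group from the rest. The groups share 2 libraries and their depth, so these values are descriptions without a test.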

How the data were processed

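The files were 2 matrices of raw UMI counts per gene and barcode, which the authors made with Cell Ranger 6.0.0 against mm10 and deposited without normalization. The submitters' processing notes also name R 4.0.2 and Seurat 4.0.2, but no cell annotation was used here. Whether reads on the other strand of a gene were counted is not given in the sources used here. With 1 library per condition and cells that are not replicates, no test was made. Barcodes under 10% mitochondrial UMIs were grouped by marker counts, with these minimums of UMIs and CPM: MuSC 2 and 150, fibre 2 and 500, myocyte 3 and 400, Pdgfra 2 and 50, other lineages 3 and 300, cycling 5 and 500, immediate-early 5 and 4000, quiescence 2 and 500, matrix 5 and 400. Gates on states applied in the order cycling, immediate-early, quiescence, matrix. The thresholds were set from the markers' distributions, and barcodes that met gates of more than 1 lineage (25 in Sham, 100 in Overload) were left out. How many of these were doublets was not tested. Of the cells with the highest doublet scores, 0 of 10 in Sham and 5 of 119 in Overload were among them. The 10 genes and the lists were chosen with earlier results of these data known.

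Counts were summed per group and library, divided by all UMIs of the group, and compared by log2 ratios with the exact conditional binomial interval in scipy 1.17.1. Shares had exact Clopper-Pearson intervals. Against 0 UMIs the ratio was a bound at 3 counts summed over the group. From the list, the genes named per comparison were the at most 4 in each direction whose interval lay farthest from 0, or fewer of these, and Sdc4. All 69 listed genes were in the files. Some marker, listed and similar genes are not reported here by name. The likeness search used genes with at least 500 UMIs and members with at least 200. The ratio code was tested on simulated data. The alternatives were mitochondrial limits of 5% and 20%, scaling with edgeR 4.0.16 or DESeq2 1.42.0, another denominator, thinning (for shares also to 1000 and 4000 UMIs), means per cell, gates doubled or halved, mixed barcodes kept, the highest doublet scores left out (10 Sham and 119 Overload cells) and no minimum of UMIs. Handling of shared barcodes, and its 2 alternatives, were chosen after seeing the data.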

Additional observations from a re-analysis of the deposited data

Results flagged for a closer look

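Cells outside the compared groups carried some of the members above 20 UMIs and above the level of the same cells in Sham. In the 617 Overload cells that met no gate, Hgf stood at 18.3 CPM, Fgfr1 at 173 CPM, Sdc1 at 56.5 CPM and Sdc2 at 183 CPM, against 1.82, 107, 9.08 and 99.9 CPM in the 85 such Sham cells. In the 242 Overload cells set aside as other lineages, Sdc1 stood at 124 CPM, with up to 55 UMIs in 1 cell, against 33.2 CPM in 33 Sham cells. These cells were used in no comparison, and what they are was not tested.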

How the results depend on the processing

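No paired analysis was possible because there was 1 library per condition, so that the shared replicate number pairs nothing and no test was made. Of 595 ratios recomputed under 13 settings, 549 stayed within the counting interval of the reported value, 46 moved out of it and 0 changed the sign of a ratio whose interval excluded 0. They covered MuSC-marker against Pdgfra+ cells, MuSCs between the libraries, and cycling MuSCs and myocytes against quiescence-marker MuSCs. Ratios of the other comparisons, such as Pdgfra+ cells between the libraries, were not among the 595. Thinning every cell to 2000 UMIs accounted for 18 of the 46, out of the 34 ratios recomputed with it. It leaves too few molecules for most members. Fgfr1, seen in 56.0% of thinned Sham MuSC-marker cells, also moved, from 0.33 to 1.79 against Sham Pdgfra+ cells. With that thinning the number of members past 2-fold came to 1 between the libraries over all MuSC-marker cells, 1 in Pdgfra+ cells, 1 in cycling MuSCs, 0 in the ungated state, 2 in matrix MuSCs, 0 in immediate-early-high MuSCs, 1 in myocytes against quiescence-marker MuSCs, 1 in myocytes against cycling MuSCs and 1 in fibre droplets. With a mean of CPM per cell it came to 5 for Sham MuSC-marker against Pdgfra+ cells, 2 for quiescence-marker MuSCs between the libraries, 2 for matrix, 1 for immediate-early-high MuSCs and 4 for myocytes against cycling MuSCs. Fgfr1 in quiescence-marker MuSCs, at -0.96 as reported, ran from -1.10 to -0.76 over the settings, and the count of that comparison was 2 with TMM factors, with median-of-ratios factors, with gates halved and with both copies of shared barcodes left out. TMM factors, a mitochondrial limit of 5% and the highest doublet scores left out each gave 2 for matrix MuSCs. Gates doubled gave 1 for Pdgfra+ cells between the libraries, 1 for immediate-early-high MuSCs and 6 for myocytes against quiescence-marker MuSCs, and gates halved gave 0 for immediate-early-high MuSCs. With no minimum of UMIs the counts were 5 for Sham MuSC-marker against Pdgfra+ cells and 2 for matrix MuSCs, and 7 in place of 6 for fibre droplets. The cause of these changes was not tested. Without either copy of the shared barcodes Fgfr1 over all MuSC-marker cells was -1.85 between the libraries, and with a mitochondrial limit of 5% it was -1.21. The depth of the Sham Pdgfra+ cells (273968 UMIs) limits what could be seen there.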
